A study of Mus musculus with 42 samples.

Results

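The 10 genes described here belong to the Bcl2 family, which decides whether a stressed cell lives or starts apoptosis. They were taken by symbol from the 55487 gene rows of each count table, with no filter on their values. The list was chosen with earlier results of these data known. Of these 10, Bcl2, Bcl2l1, Bcl2l2 and Mcl1 promote survival, Bak1 forms pores in the outer mitochondrial membrane, and Bcl2l11, Bid, Bad, Bik and Bmf are BH3-only death genes. The family members best known as p53 targets (Bax, Bbc3 and Pmaip1) were not among the 10 and are given for comparison.

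The study measured how a diet free of branched-chain amino acids (BCAA: leucine, isoleucine, valine) bears on mRNA and translation in mouse MLL-AF9 acute myeloid leukaemia treated with chemotherapy. Each of 21 mice gave an mRNA library by Smart-seq2 and a footprint library, which holds the pieces of mRNA left inside ribosomes after RNase digestion. The BCAA-free diet was combined with 5+3 in 7 mice and with vehicle in 5, and the standard amino acid (AA) diet with 5+3 in 4 mice and with vehicle in 5. The 5+3 course was cytarabine at 100 mg/kg a day for 5 days with doxorubicin at 3 mg/kg a day for the first 3 days, and vehicle was PBS. All recipients were male, labelled WT and aged 8 to 10 weeks, and none was preconditioned before the leukaemia cells were injected by vein. These cells came from 1 terminally ill mouse, were grown in culture before injection, and express GFP and luciferase, so every value concerns a single leukaemia. Treatment began at a critical leukaemia burden, and viable GFP-positive marrow cells were sorted at the point of maximum response.

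Survival proteins of this family hold the pore formers Bak1 and Bax in check at the mitochondrion. BH3-only proteins respond to particular stresses and either block the survival proteins or activate the pore formers, after which cytochrome c leaves the mitochondrion and caspases are switched on. Myeloid leukaemias are known to lean on Bcl2 and Mcl1, and drugs that block Bcl2 are used against them. Bid is cut by caspase 8 and carries the death receptor signal to the mitochondrion. Much of the family's control acts on the proteins, through cleavage, phosphorylation and degradation, which neither kind of library measures.

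Total gene counts were 30996200 to 70437713 in the mRNA libraries and 2697092 to 8863472 in the footprint libraries, so footprint values of weakly expressed members rest on few reads. All 9 leukaemia markers looked for (such as Hoxa9, Meis1 and Mpo) had counts in every group. On the first principal component of mRNA, which held 27.3% of the variance, the BCAA-free vehicle replicates 1, 2 and 5 lay at -52.2, -57.5 and -115, below the other 18 libraries, the next of which was at -36.7. An earlier analysis of these data also set apart replicate 7 of the BCAA-free 5+3 group, which lay at -20.3 here, among the other libraries. The mice of the AA vehicle group carry a suffix in their names that the other groups lack and that no source explains. If it marks a batch, that batch and the group cannot be told apart. Levels are given as CPM, the counts scaled to equal library totals, and each log2 change has the standard error (SE) from edgeR beside it.

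The 10 members were not all measurable. In mRNA, 9 passed the filter on low counts and Bik did not. In footprints, 7 passed and Bcl2l2 (at most 5 reads a library), Bik and Bmf (at most 7) did not, which left 7 for translational efficiency, the change of footprints beyond that of mRNA. Bik, a BH3-only gene, had no mRNA read in 13 of 21 libraries and at most 54 reads in a library. Its footprint total over all 21 libraries was 2 reads. A count of 0 allows up to 3 reads, or 0.0426 to 0.0968 CPM in mRNA depending on the library's depth. Levels of different genes are not ranked here because no transcript lengths were at hand.

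5+3 on the BCAA-free diet changed more members than any other comparison. Bid mRNA rose 2.03-fold and Bak1 mRNA fell 1.86-fold, while Mcl1 footprints rose 1.20-fold. Neither Bid nor Bak1 footprints passed the test there, and Bid was the only member whose translational efficiency passed, 1.80-fold lower. In mRNA 2 of 9 members passed at an adjusted p under 0.05 (1 higher, 1 lower), against 8.56% of all genes tested. In footprints 1 of 7 passed against 20.6%, and in translational efficiency 1 of 7 against 7.15%. With so few members, 1 or 2 calls are close to what these shares of all genes give.

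Bid stood apart most clearly in mRNA. On the BCAA-free diet, the 7 mice given 5+3 had 157 CPM at the lowest, 218 at the median and 267 at the highest. The 5 mice given vehicle had 118, 115, 97.1, 119 and 54.9 CPM. The groups did not overlap, and replicate 5 of the vehicle group was the lowest of all 21 mice. The share of all genes whose groups do not overlap was not counted, here or below. The means were 205 ± 40.5 CPM with 5+3 (SD, n = 7) and 101 ± 27.1 CPM with vehicle (SD, n = 5). The log2 change was 1.02 ± 0.23, with an adjusted p of 0.0139. The call held in 12 of 12 fits that left out 1 mouse, where the log2 change was 0.87 or more. Leaving out the 4 mice set apart here or in that earlier analysis kept only replicates 3 and 4 of vehicle. The log2 change was then 1.01 and the adjusted p 0.233.

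**Figure D1:**
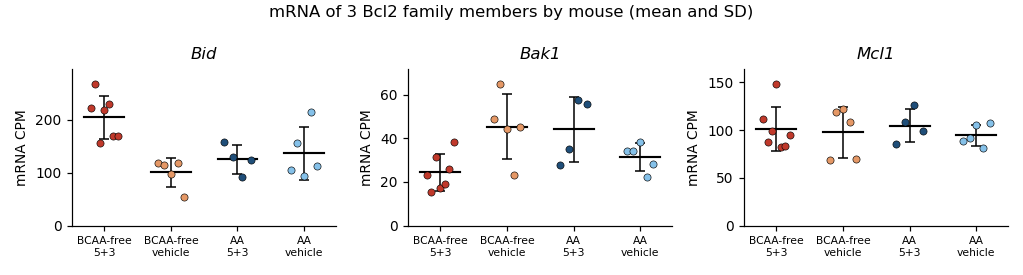
mRNA levels (CPM) of Bid, Bak1 and Mcl1 in each of 21 mice, 1 point per mouse, with group means (bars) and SD (whiskers). On the BCAA-free diet all 7 mice with 5+3 lay at 157 CPM of Bid or more and all 5 with vehicle at 119 or less, while Bak1 ran the other way and the Mcl1 groups overlapped.

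Bak1, one of the family's pore formers, moved the other way in mRNA. With 5+3 the BCAA-free mice had 15.2 CPM at the lowest, 23.4 at the median and 38.5 at the highest. With vehicle they had 48.7, 64.7, 44.2, 23.1 and 45.2 CPM. The groups overlapped through replicate 4 of the vehicle group, and the other 4 vehicle mice lay above all 7 treated ones. The means were 24.4 ± 8.29 CPM with 5+3 (SD, n = 7) and 45.2 ± 14.8 CPM with vehicle (SD, n = 5), a log2 change of -0.89 ± 0.26 (adjusted p = 0.0358). The call was lost in 8 of 12 fits that left out 1 mouse (replicate 1, 2, 4 or 5 of 5+3, or 1, 2, 3 or 5 of vehicle; adjusted p up to 0.111), at 0.0716 when only the compared groups were fitted, and without the 4 mice named above (log2 change -0.55, adjusted p = 0.390). The Bak1 row overlaps Ggnbp1 on chromosome 17, which had 1479 mRNA counts on average against 1651 for Bak1. Without a stated strand setting, reads in the overlap cannot be told apart. Ggnbp1 itself did not pass (log2 change -0.18 ± 0.23, adjusted p = 0.647).

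Stretches upstream of a start that RefSeq lists for each of these 2 genes are shown because their mRNA changed in opposite directions (GRCm38.p6, minus strand). Capitals mark the GC box GGGCGG, searched on both strands, which 32.7% of 32851 promoters of 250 bases hold. For Bid only 30 bases at chr6:120916864-120916893 are printed, which lie upstream of the listed start but inside the annotated gene, and for Bak1 the 250 bases at chr17:27028628-27028877.
Bid: ggaGGGCGGagcatccggaGGGCGGggcta
Bak1: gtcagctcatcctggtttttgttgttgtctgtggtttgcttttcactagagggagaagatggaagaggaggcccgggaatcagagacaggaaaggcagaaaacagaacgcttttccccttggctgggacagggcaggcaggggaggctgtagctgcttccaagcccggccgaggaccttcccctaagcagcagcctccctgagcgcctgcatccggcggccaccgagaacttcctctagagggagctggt
The whole Bid window held 3 GC boxes and the Bak1 window none. Of the 15 promoters listed for 9 members, 7 held the box. The forkhead motif GTAAACA was found before Bcl2l11 alone, and 3.17% of all promoters hold it. The STAT motif TTCNNNGAA (7.02% of promoters) was found before no member. Nor were the E-box CACGTG (6.02%), the CRE TGACGTCA (1.55%) or the TATA box letters TATAAA (12.4%). A match says only that the letters are there, and no match only that they are not in this window.

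Footprints of Bid and Bak1 differed less between these groups than mRNA did. Bid footprints were 31.4 to 42.7 CPM with 5+3 (median 35.6), against 40.9, 34.2, 30.8, 35.2 and 29.5 CPM with vehicle. The ranges overlapped almost fully, with a log2 change of 0.07 ± 0.11 (adjusted p = 0.685). Bak1 footprints were 26.6 to 41.8 CPM with 5+3 (median 34.5), against 39.5, 31.4, 30.8, 33.7 and 27.7 CPM with vehicle. Here too the groups overlapped, with a log2 change of 0.08 ± 0.12 (adjusted p = 0.671).

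Mcl1, a short-lived survival protein that binds Bak1, was the member whose footprints changed. With 5+3 on the BCAA-free diet its footprints were 45.4 CPM at the lowest, 52.2 at the median and 63.4 at the highest. With vehicle they were 39.0, 44.2, 47.2, 43.2 and 41.5 CPM. The groups overlapped only by replicate 3 of the vehicle group, and the 5+3 mouse was the higher in 97.1% of the pairs of mice. The means were 51.9 ± 6.07 CPM with 5+3 (SD, n = 7) and 43.0 ± 3.08 CPM with vehicle (SD, n = 5), a log2 change of 0.26 ± 0.09 (adjusted p = 0.0333). Mcl1 mRNA differed by less than its error there (0.05 ± 0.18, adjusted p = 0.890), and its translational efficiency did not pass (0.34 ± 0.20, adjusted p = 0.252). The footprint call was lost in 4 of 12 fits that left out 1 mouse (replicate 7 of 5+3, or 1, 4 or 5 of vehicle), with adjusted p up to 0.0875. It was also lost at 0.119 with no filter on low counts and 0.0533 with the compared groups alone. The adjusted p was 0.152 with the replicate number as a block, and 0.433 (log2 change 0.16) without the 4 mice.

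**Figure D2:**
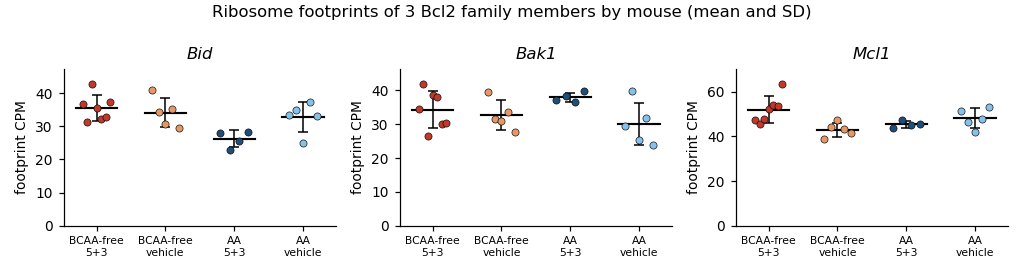
Ribosome footprint levels (CPM) of Bid, Bak1 and Mcl1 in each of 21 mice, 1 point per mouse, with group means (bars) and SD (whiskers). The 7 BCAA-free mice with 5+3 lay above all 4 AA mice with 5+3 in Bid (31.4 to 42.7 against 22.8 to 28.3 CPM), and Bak1 overlapped in all groups.

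Translational efficiency sets the footprint change against the mRNA change of the same mice, so its results share the mRNA libraries of the tests above. For Bid, footprint CPM per mRNA CPM was on the BCAA-free diet 0.117 at the lowest, 0.166 at the median and 0.272 at the highest with 5+3. With vehicle it was 0.348, 0.297, 0.317, 0.296 and 0.537. The groups did not overlap, and the highest value, in replicate 5 of vehicle, belonged to the mouse with the lowest Bid mRNA. The fall was -0.85 ± 0.21 on the log2 scale (adjusted p = 0.0313). It was lost in 7 of 12 fits that left out 1 mouse (replicate 1, 2, 4 or 5 of 5+3, or 2, 3 or 5 of vehicle; adjusted p up to 0.0764) and without the 4 mice (adjusted p = 0.330). For Bak1 the ratio was 0.791 to 2.75 with 5+3 (median 1.48), against 0.810, 0.486, 0.697, 1.46 and 0.612 with vehicle, and its log2 change of 1.11 ± 0.34 did not pass (adjusted p = 0.0521). It passed with no mouse block (0.0354), among protein-coding genes alone (0.0410) and in 4 of 12 fits that left out 1 mouse (replicate 3, 6 or 7 of 5+3, or 4 of vehicle).

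**Figure D3:**
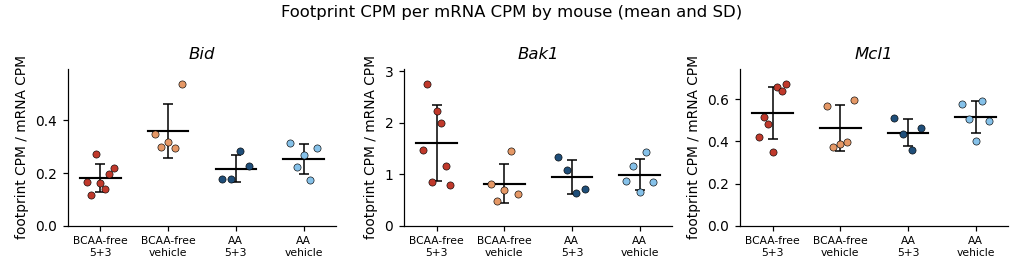
Footprint CPM divided by mRNA CPM for Bid, Bak1 and Mcl1 in each of 21 mice, 1 point per mouse, with group means (bars) and SD (whiskers). On the BCAA-free diet the Bid ratio was at most 0.272 with 5+3 and at least 0.296 with vehicle, while the Bak1 and Mcl1 ratios overlapped.

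Some genes used as markers of other marrow cell types moved with this comparison. Whether their reads came from such cells or from the leukaemia cells themselves was not tested. In mRNA 6 of 10 red cell, 9 of 9 mature neutrophil and 3 of 10 monocyte and macrophage markers passed, all lower. Of B cell markers 1 of 7 passed, also lower, and of T and NK cell markers 0 of 7. For megakaryocytes and for stroma and endothelium it was 0 of 5 each. The share over all genes was 8.56%. The summed mRNA of 10 red cell markers was 3.06 to 14.1 CPM with 5+3 on the BCAA-free diet and 72.8 to 136 CPM with vehicle. The sum of 9 mature neutrophil markers was 256 to 2587 CPM with 5+3 and 3638 to 4771 CPM with vehicle, and that of 10 monocyte and macrophage markers 212 to 340.0 CPM with 5+3 and 325 to 829 CPM with vehicle. None of these markers was at 0 in all mRNA libraries of a group. Their part in the changes of Bid, Bak1 and Mcl1 was not tested. In sorted bulk cells, fewer cells of a type and less RNA per cell cannot be told apart.

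The other members measured in mRNA in this comparison did not pass. Bcl2l2, a survival gene, came nearest, with 2.54 to 6.77 CPM with 5+3 (median 4.95) and 9.93, 21.4, 15.3, 5.19 and 2.60 CPM with vehicle. Replicates 1, 2 and 3 of vehicle lay above all treated mice and replicates 4 and 5 among them, and the log2 change was -1.31 ± 0.42 (adjusted p = 0.0546). Bcl2l2 passed with DESeq2 (0.0171), among protein-coding genes alone (0.0424) and in 3 of 12 fits that left out 1 mouse (replicate 7 of 5+3, or 4 or 5 of vehicle). Bcl2, the founding survival gene, had 5.91 to 16.4 CPM with 5+3 (median 10.6) and 10.9 to 21.8 CPM with vehicle (median 16.3). Its log2 change was -0.70 ± 0.28 (adjusted p = 0.115), and without replicate 3 of 5+3 it was -0.86 (adjusted p = 0.0497). Bcl2 passed in no other fit that left out 1 mouse. Bcl2l1, which encodes the survival protein Bcl-xL, had 11.4 to 39.5 CPM with 5+3 (median 28.1) and 4.70 to 22.2 CPM with vehicle (median 15.0), a log2 change of 0.72 ± 0.34 (adjusted p = 0.176).

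Among the BH3-only genes, Bcl2l11, which encodes Bim, had 8.83 to 14.5 CPM of mRNA with 5+3 (median 11.2) and 4.96 to 10.9 CPM with vehicle (median 10.9), with an adjusted p of 0.265. Bad, whose protein is held inactive by 14-3-3 proteins when phosphorylated, had 63.2 to 145 CPM with 5+3 (median 114) and 62.4 to 147 CPM with vehicle (median 98.5), with an adjusted p of 0.966. The Bad row overlaps Gpr137, which had 885 mRNA counts on average against 5062 for Bad. Bmf, which senses loss of attachment, had 16 to 66 reads with 5+3 and 0 to 113 with vehicle. That spread between mice left a log2 change of -0.63 ± 0.88 (adjusted p = 0.680). The error was larger than the change, so a difference of this size could not be shown. In footprints the uncalled members spanned log2 changes of -0.32 (Bad) to 0.08 (Bak1). Bcl2 footprints rested on 6 to 17 reads a library with 5+3 and 2 to 15 with vehicle.

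**Figure D4:**
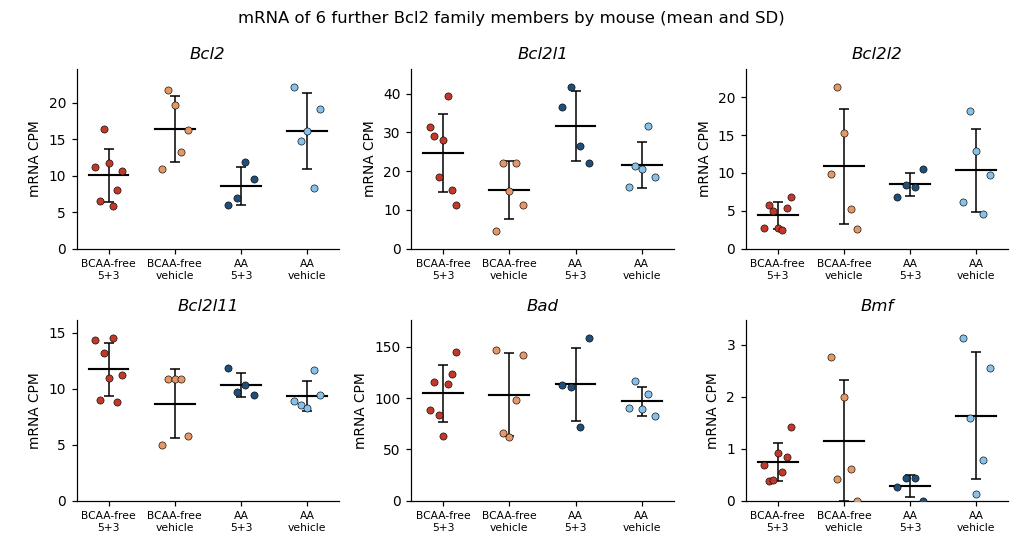
mRNA levels (CPM) of 6 further members in each of 21 mice, 1 point per mouse, with group means (bars) and SD (whiskers). The groups overlapped in most panels. In Bcl2l2 the 7 BCAA-free mice with 5+3 (2.54 to 6.77 CPM) lay just below the 4 AA mice with 5+3 (6.78 to 10.5 CPM).

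Between the diets under 5+3, Bid was the member that differed. Its footprints were 1.36-fold higher on the BCAA-free diet, at 31.4 CPM at the lowest, 35.6 at the median and 42.7 at the highest, against 28.0, 22.8, 25.7 and 28.3 CPM on the AA diet. The groups did not overlap. The means were 35.6 ± 3.92 CPM on the BCAA-free diet (SD, n = 7) and 26.2 ± 2.53 CPM on the AA diet (SD, n = 4), a log2 change of 0.44 ± 0.12 (adjusted p = 0.00579). With vehicle the means were 34.1 ± 4.44 CPM on the BCAA-free diet and 32.8 ± 4.62 CPM on the AA diet (SD, n = 5 each). The AA mice with 5+3 were thus the group with the lowest mean. The call held in 11 of 11 fits that left out 1 mouse (adjusted p up to 0.0266), with a log2 change of at least 0.39. It was 1 of 7 members tested, against 28.3% of all genes, so a call in this comparison was common.

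Bid mRNA pointed the same way without passing. It was 157 to 267 CPM on the BCAA-free diet (median 218) and 158, 129.7, 91.1 and 124 CPM on the AA diet, where replicate 1 was the only mouse to reach the BCAA-free range. The log2 change was 0.70 ± 0.25 (adjusted p = 0.184). This comparison and that of 5+3 with vehicle on the BCAA-free diet share the same 7 mice. Red cell markers summed to 7.33 to 26.4 CPM of footprints on the BCAA-free diet and 95.3 to 152 CPM on the AA diet, and neutrophil markers to 104 to 1172 CPM on the BCAA-free diet and 694 to 2123 CPM on the AA diet. Monocyte and macrophage markers summed to 75.3 to 214 CPM on the BCAA-free diet and 143 to 184 CPM on the AA diet. The 9 leukaemia markers summed to 5972 to 7700 CPM on the BCAA-free diet and 8392 to 10343 CPM on the AA diet. In footprints 1 of these 9 passed higher and 4 lower, beside 28.3% of all genes. Red cell markers passed in 5 of 5 and neutrophil markers in 5 of 9, all lower. Of 9 monocyte and macrophage markers tested, 1 passed higher and 2 lower. The part of any of these markers in the Bid difference was not tested.

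In mRNA 0 of 9 members passed between the diets under 5+3 by edgeR, against 1.24% of all genes, with 3 at an unadjusted p under 0.05, while DESeq2 called 0 members and 776 of all genes. The 3 were Bcl2l2 (-0.95 ± 0.45, adjusted p = 0.371), Bak1 (-0.86 ± 0.27, adjusted p = 0.141) and Bid. The Bcl2l2 ranges nearly touched without overlapping, at 2.54 to 6.77 CPM on the BCAA-free diet and 6.78, 8.47, 8.19 and 10.5 CPM on the AA diet. Bak1 was 15.2 to 38.5 CPM on the BCAA-free diet (median 23.4) and 27.9, 35.1, 57.7 and 55.8 CPM on the AA diet, and without the 4 mice its log2 change was -0.98 (adjusted p = 0.0402). In translational efficiency 0 of 7 passed, against 0.00827% of all genes, with 1 at an unadjusted p under 0.05 (Bak1, 0.82 ± 0.37, adjusted p = 0.654). Mcl1 footprints were 45.4 to 63.4 CPM on the BCAA-free diet (median 52.2) and 43.8, 47.5, 45.0 and 45.8 CPM on the AA diet, with a log2 change of 0.18 ± 0.09 (adjusted p = 0.140). Among protein-coding genes alone Mcl1 passed (0.27, adjusted p = 0.0274).

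5+3 on the AA diet changed no member by the test. In mRNA 0 of 9 members passed by edgeR, against 0.0616% of all genes, and 2 were at an unadjusted p under 0.05. DESeq2 also called 0 members, and 94 of all genes. One of the 2 was Bcl2, with 6.05, 6.98, 11.9 and 9.55 CPM with 5+3 and 22.2, 14.8, 16.1, 8.37 and 19.1 CPM with vehicle. Replicate 4 of vehicle was the only vehicle mouse within the 5+3 range, and the log2 change was -0.90 ± 0.34 (adjusted p = 0.596). The other was Bmf, with 15, 19, 20 and 0 reads with 5+3 and 138, 88, 6, 40 and 81 reads with vehicle (log2 change -2.52 ± 1.10, adjusted p = 0.731). Bmf spanned 6 to 138 reads within the vehicle group alone.

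In footprints 0 of 7 members passed by edgeR for 5+3 on the AA diet, against 6.61% of all genes, with 2 at an unadjusted p under 0.05. DESeq2 also called 0 members. Bid had 28.0, 22.8, 25.7 and 28.3 CPM with 5+3 and 33.4, 35.0, 25.1, 37.4 and 33.2 CPM with vehicle, where only replicate 3 of vehicle lay in the 5+3 range (log2 change -0.32 ± 0.12, adjusted p = 0.122). Without that mouse the log2 change of Bid was -0.41 (adjusted p = 0.0469). Bak1 had 37.2, 38.4, 36.6 and 39.7 CPM with 5+3 and 29.4, 39.9, 25.3, 31.8 and 23.9 CPM with vehicle (log2 change 0.35 ± 0.14, adjusted p = 0.131). Replicate 2 was the only vehicle mouse to reach the 5+3 values, and without it the log2 change was 0.46 (adjusted p = 0.0369). In 7 of 9 fits that left out 1 mouse no member passed. In translational efficiency 0 of 7 passed, against 0% of all genes, and 0 had an unadjusted p under 0.05.

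Between the diets under vehicle no member passed either. In mRNA 0 of 9 passed by edgeR, against 0% of all genes, with 0 at an unadjusted p under 0.05. DESeq2 also called 0 members, and 161 of all genes. Log2 changes there ran from -0.52 (Bcl2l1) to 0.53 (Bak1). In footprints 0 of 7 passed by edgeR, against 2.04% of all genes, with 1 at an unadjusted p under 0.05, and DESeq2 also called 0 members. The 1 was Bad, with 7.31, 5.56, 7.79, 8.24 and 10.2 CPM on the BCAA-free diet and 4.32, 5.96, 5.86, 6.81 and 6.02 CPM on the AA diet (log2 change 0.40 ± 0.17, adjusted p = 0.199). All but replicate 2 of the BCAA-free mice exceeded every AA mouse. In translational efficiency 0 of 7 passed, against 0% of all genes, and 0 had an unadjusted p under 0.05.

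**Figure D5:**
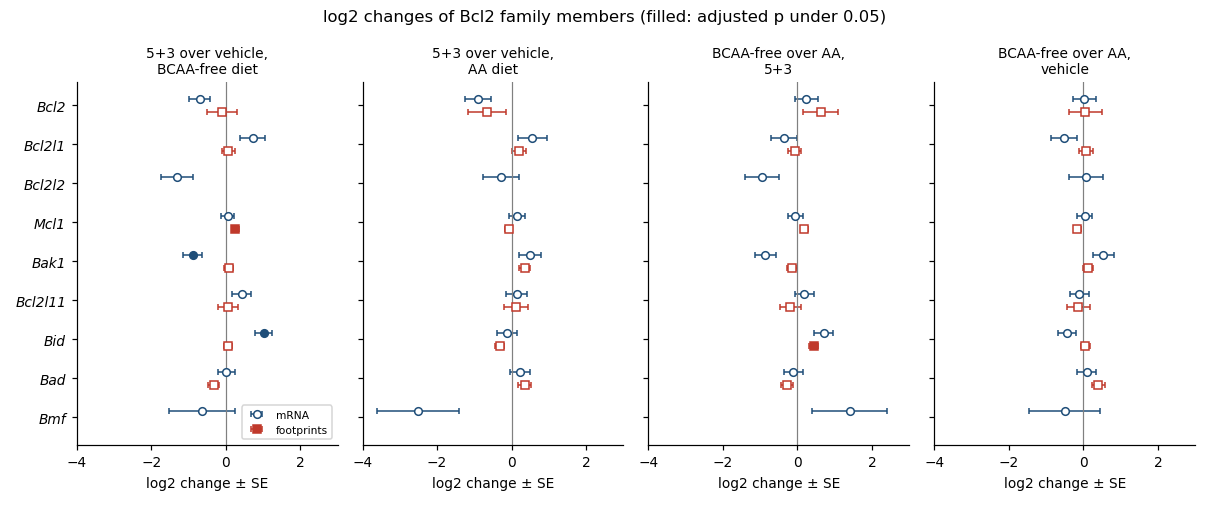
Log2 changes with SE (x axis) of 9 members in 4 comparisons, mRNA as blue circles and footprints as red squares, with filled symbols where the adjusted p was under 0.05. The filled symbols are Bid and Bak1 mRNA and Mcl1 footprints for 5+3 on the BCAA-free diet, and Bid footprints between the diets under 5+3.

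The interaction asks whether 5+3 acted differently on the 2 diets, and no member passed it. In mRNA 0 of 9 passed by edgeR, against 0.0758% of all genes, with 2 at an unadjusted p under 0.05. DESeq2 called 0 members and 176 of all genes. Bak1 had the lower value, -1.39 ± 0.39 (adjusted p = 0.214), and Bid was at 1.15 ± 0.34 (adjusted p = 0.238). The opposite calls of Bid and Bak1 on the BCAA-free diet are therefore not shown to differ from the AA diet. In footprints 0 of 7 passed by edgeR, against 7.09% of all genes, with 3 at an unadjusted p under 0.05, and DESeq2 also called 0 members. The 3 were Bad (-0.68 ± 0.23, adjusted p = 0.0721), Mcl1 (0.34 ± 0.13, adjusted p = 0.108) and Bid (0.39 ± 0.16, adjusted p = 0.144). Bad passed when replicate 2 of the BCAA-free vehicle group was left out (-0.78, adjusted p = 0.0350). In 20 of 21 fits that left out 1 mouse no member passed. In translational efficiency 0 of 7 passed, against 0.00827% of all genes, with 1 at an unadjusted p under 0.05 (Bak1, 1.23 ± 0.52, adjusted p = 0.378).

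Over the 21 mice, footprints of several members varied less than their mRNA. The SD of log2 CPM was 0.19 in footprints and 0.70 in mRNA for Bcl2l1, 0.23 and 0.57 for Bak1, 0.23 and 0.55 for Bid, and 0.16 and 0.28 for Mcl1. For Bcl2 and Bcl2l11 the SDs were alike in both kinds (0.57 and 0.58, 0.36 and 0.35), and their footprint counts were at most 17 and 22 reads. Footprints followed mRNA of the same mouse weakly, with Pearson's r from -0.17 (Bak1) to 0.39 (Bcl2l11). These are descriptions over mice that share groups, with no test and no value over all genes beside them.

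Among the members' mRNA levels over the 21 mice, the strongest negative relations were Mcl1 with Bad (r = -0.78), Bak1 with Bid (-0.75) and Bcl2 with Bid (-0.61). The strongest positive ones were Bcl2l1 with Bcl2l11 (0.71) and Bcl2l2 with Bak1 (0.62). In footprints Bak1 and Bid stood at -0.10 and Mcl1 and Bad at -0.41. The mice share groups and the levels share a scaling to the TMM-adjusted library total. The part of either in these values was not tested. The genes whose footprints were most like those of Mcl1, among 5653 genes, were Dtl (r = 0.70), Rpusd2 (0.70) and Kpna3 (0.69).

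Among the p53-target relatives, Pmaip1, which encodes the BH3-only protein Noxa that binds Mcl1, passed in several comparisons. For 5+3 on the BCAA-free diet its footprints were 6.95 to 11.4 CPM (median 9.02), against 2.78 to 6.49 CPM with vehicle (median 4.76). These groups did not overlap, and the log2 change was 0.97 ± 0.20 (adjusted p = 0.00154). Its mRNA rose by 1.34 ± 0.39 there (adjusted p = 0.0376), a call lost in 7 of 12 fits that left out 1 mouse (replicate 1, 2, 4 or 5 of 5+3, or 1, 2 or 3 of vehicle). Between the diets under 5+3, Pmaip1 footprints were 1.00 ± 0.22 higher on the BCAA-free diet (adjusted p = 0.00128). Bax, the other main pore former, and Bbc3, which encodes Puma, passed in none of the 15 results. For 5+3 on the BCAA-free diet the log2 changes of Bax were -0.38 ± 0.23 in mRNA (adjusted p = 0.302) and 0.32 ± 0.13 in footprints (adjusted p = 0.0924), and those of Bbc3 were -0.40 ± 0.23 (adjusted p = 0.261) and -0.03 ± 0.26 (adjusted p = 0.946). Bax footprints passed among protein-coding genes alone (0.0284). Of the fits that left out 1 mouse, they passed only in that without replicate 3 of 5+3 (0.0119). Between the diets under vehicle, Bbc3 footprints were 2.00 to 5.45 CPM on the BCAA-free diet (median 4.06) and 0.567 to 2.61 CPM on the AA diet (median 1.96), a log2 change of 1.16 ± 0.33 (adjusted p = 0.0589). They passed with no filter on low counts (0.0148) and among protein-coding genes alone (0.0429). Of the fits that left out 1 mouse, they passed only in that without replicate 4 of the BCAA-free group (0.0353). Bbc3 mRNA did not overlap there, at 28.3 to 43.8 CPM on the BCAA-free diet and 12.8 to 27.0 CPM on the AA diet, and did not pass (0.73 ± 0.25, adjusted p = 0.345).

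Counts over 60 further apoptosis genes, the 3 p53 targets included, put the members in context. For 5+3 on the BCAA-free diet 11 of 57 passed in mRNA, 8 higher and 3 lower, beside 8.56% of all genes. In footprints 14 of 53 passed, 6 higher and 8 lower, beside 20.6%. Footprints of Apaf1, the scaffold of the apoptosome, fell (-0.63 ± 0.11, adjusted p = 0.000315), as did those of the death receptor adaptor Ripk1 (-0.58 ± 0.10, adjusted p = 0.000288). Cflar, which blocks caspase 8, fell in footprints by 0.79 ± 0.17 (adjusted p = 0.00222). Footprints of Tnfrsf10b, a death receptor for TRAIL, rose 3.12-fold (1.64 ± 0.39, adjusted p = 0.00428). These 4 calls held in 12 of 12 fits that left out 1 mouse.

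Casp8, whose protein cuts Bid, rose in mRNA (1.07 ± 0.28, adjusted p = 0.0266) and fell in footprints (-0.54 ± 0.10, adjusted p = 0.000737) and in translational efficiency (-1.53 ± 0.28, adjusted p = 0.0189). The footprint call held in 12 of 12 fits that left out 1 mouse. The mRNA call was lost in 6 of them (replicate 1, 2 or 5 of 5+3, or 2, 3 or 5 of vehicle), and the translational efficiency call in 4 (replicate 1, 2 or 5 of 5+3, or 2 of vehicle). Huwe1, a ubiquitin ligase of Mcl1, rose in footprints (0.45 ± 0.11, adjusted p = 0.00428). Dynll1, a dynein light chain that binds Bim, fell in footprints (-0.67 ± 0.16, adjusted p = 0.00528). Without the 4 mice, the footprint calls of Apaf1, Casp8 and Cflar held, and those of Ripk1, Tnfrsf10b, Huwe1, Dynll1 and Pmaip1 were lost. The mRNA calls of Casp8 and Pmaip1 and the translational efficiency call of Casp8 were lost as well.

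Between the diets under 5+3, 9 of the 53 further genes measured passed in footprints, 2 higher and 7 lower, beside 28.3% of all genes. Apaf1 footprints were 0.83 ± 0.11 lower on the log2 scale on the BCAA-free diet (adjusted p = 1.03e-05), a call that held in 11 of 11 fits that left out 1 mouse. For 5+3 on the AA diet 4 of 53 passed in footprints, 2 higher and 2 lower, beside 6.61% of all genes. The interaction passed in footprints for Apaf1 (-0.74 ± 0.16, adjusted p = 0.00860), among 3 of 53 beside 7.09% of all genes, and that call was lost without the 4 mice. The median log2 change of the 57 genes for 5+3 on the BCAA-free diet was 0.06 in mRNA, and that of the 9 members 0.02, beside -0.01 over all genes.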

How the data were processed

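The authors deposited 2 tables of raw counts per gene, whole numbers with no normalization, per the labels and the values, with 21 mRNA and 21 footprint libraries. Tools listed in the submitters' processing notes are featureCounts, STAR, Bowtie2, cutadapt and SAMtools, with the build GRCm38 (mm10). Tool versions, annotation and strandedness were not given in the sources used here. Of 55487 Ensembl identifiers 55141 (99.4%) matched a symbol. The labels number the mice as biological replicates. All 47 pairs within groups differed beyond sampling noise.

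The tests ran in edgeR 4.0.16 under R 4.3.3, with filterByExpr (minimum count 10, minimum total 15), TMM scaling and the robust quasi-likelihood test with all 4 groups in 1 fit per kind. This tested 21114 genes in mRNA and 15723 in footprints. Translational efficiency was the interaction of library kind with group over both kinds, with the mouse as a block, on 12097 genes. The labels tie the 2 libraries of a mouse. Within its group, 15 of 21 mRNA libraries were most like their own mouse's footprints. Among the footprints of all 21 mice 8 were, and the median r between the 2 libraries of a mouse was 0.101. P-values were Benjamini-Hochberg adjusted over all genes, with a threshold of 0.05. CPM values are scaled by the library total multiplied by its TMM factor. The CPM limits for counts of 0 use the total alone. SE is the log2 change divided by the root of the F statistic. Alternatives were median-ratio scaling, no filter, each mouse left out, the compared groups alone, 4 mice left out, the block, DESeq2 1.42.0 and protein-coding genes alone (chosen after seeing the data). The tests were checked on simulated data. All 10 members were named, with Bax, Bbc3 and Pmaip1 and at most 4 passing genes per other list. The members and lists were chosen with earlier results of these data known. Counting error alone underlies the limits given for counts of 0.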

Additional observations from a re-analysis of the deposited data

Results flagged for a closer look

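One value stood apart within its group. Footprint CPM per mRNA CPM of Bid was 0.537 in replicate 5 of the BCAA-free vehicle group, while the other 4 mice of that group had 0.296 to 0.348. Its gap to the next mouse exceeded Dixon's critical value. Of 92 groups of values looked at, this was the 1 so marked, and chance marks about 1 in 20. The same mouse had the lowest Bid mRNA of all 21 (54.9 CPM) and lay lowest on the first mRNA component (-115). Without it the fall of Bid's translational efficiency with 5+3 lost its call.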

How the results depend on the processing

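Of 15 counts of members passing, those for 5+3 on the BCAA-free diet moved with the processing. In mRNA the count of 2 became 1 with the compared groups alone, 0 without the 4 mice set apart here or in an earlier analysis and 3 with DESeq2, with the replicate block and among protein-coding genes (each adding Bcl2l2, at an adjusted p of 0.0311 with the block), and ranged from 1 to 3 with each mouse left out. In footprints the count of 1 became 0 with the compared groups alone, with the replicate number as a block (Mcl1 adjusted p = 0.152) and without the 4 mice, and ranged from 0 to 1 with each mouse left out. In translational efficiency the count of 1 became 2 with no block for the mouse and among protein-coding genes, 0 without the 4 mice, and ranged from 0 to 2 with each mouse left out. Without the 4 mice, the BCAA-free vehicle group holds replicates 3 and 4 alone. With so few mice, a call lost there does not show that the change is absent. Between the diets under 5+3, the mRNA count of 0 became 1 without the 4 mice and the footprint count of 1 became 2 among protein-coding genes. With each mouse left out, footprint counts ranged from 0 to 1 for 5+3 on the AA diet and for the interaction. The cause of these moves was not tested. No called value changed sign. Mice of different groups that share a replicate number correlated at -0.445 to 0.455. With so few mice this range does not settle whether the numbers pair them, so the block is given as an alternative only.

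Counts over all genes moved too. For 5+3 on the BCAA-free diet, 1807 genes passed in mRNA, with 546 to 2613 when each mouse was left out, 3471 with DESeq2 and 19 without the 4 mice. In footprints 3242 passed, with 396 without the 4 mice, and in translational efficiency 865, with 5 to 1869 when each mouse was left out, 1673 with no filter and 0 without the 4 mice. Low footprint counts limit what can be said of Bcl2, Bcl2l11, Bcl2l2, Bmf and Bik.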

Other observations

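Relatives outside the members include Bnip3l, a BH3-related gene known for mitochondrial clearance. Its footprints fell with 5+3 by 0.59 ± 0.11 on the BCAA-free diet (log2, adjusted p = 0.000959, edgeR) and by 0.60 ± 0.13 on the AA diet (adjusted p = 0.00794). Both calls held when each mouse was left out in turn, in 12 of 12 and 9 of 9 fits, and the first was lost without the 4 mice. Birc5, which encodes survivin, rose in footprints with 5+3 on the AA diet (0.57 ± 0.13, adjusted p = 0.0103), a call lost without replicate 1 of 5+3 (0.0504). Xiap, which inhibits caspases, fell in mRNA with 5+3 on the BCAA-free diet (-1.27 ± 0.38, adjusted p = 0.0401), and that call was lost in 8 of 12 fits that left out 1 mouse (replicate 1, 2, 4, 5 or 6 of 5+3, or 2, 3 or 5 of vehicle).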
